A study of Homo sapiens with 12 samples.

Results

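Aminoacyl-tRNA synthetases are the enzymes that load each amino acid onto its tRNA, and the levels of 38 transcripts of this system were followed in 12Z cells under insulin and Viperin. The members were taken as a list of gene symbols, by the names of the enzymes and not by a threshold on measured values: 19 cytosolic enzymes (symbols ending in 1, with FARSA and FARSB, the subunits of the cytosolic phenylalanine enzyme), 16 mitochondrial enzymes (symbols ending in 2) and 3 scaffold proteins, AIMP1, AIMP2 and EEF1E1. They are 38 of 60617 genes in the count files, and 36 were among the 23041 genes that passed the filter on low counts and were tested. SARS2 and VARS2 did not pass it.

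The 12Z line is an immortalized line from human endometriotic epithelium, so all libraries come from a single line in culture. Cells in every group were transfected with FuGene HD, starved of serum for 4 h and then kept in serum-free medium for 24 h. Control received the pCAG empty vector and vehicle, Insulin the empty vector and 100 nM insulin, Viperin the pCAG Viperin plasmid and vehicle, and Viperin + Insulin that plasmid and 100 nM insulin, with 3 libraries in each group from independent experiments. The group labels name pCAG for the empty vector, while the treatment description has pBabe. Viperin, encoded by RSAD2, is an antiviral radical S-adenosylmethionine enzyme, here under a plasmid promoter and not at its own gene.

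The libraries held 25979022 to 46889002 read pairs assigned to genes. RSAD2 was at or above 384 CPM (counts scaled to a common library size) in the 6 libraries with the Viperin plasmid and at or below 5.19 CPM in the 6 with the empty vector, a log2 difference of 7.28 (two-sided exact permutation test, p = 0.00216, the smallest that 6 against 6 libraries allow). Keratins of epithelial cells were abundant, with KRT8 at 1173 to 1429 CPM, but the epithelial adhesion genes EPCAM (2 to 39 counts) and CDH1 (24 to 66 counts) were close to 0 and mesenchymal genes such as VIM (1391 to 1739 CPM) were high. Of the 4 blood genes, CD3E had 0 to 1 counts, CD68 0 to 6, PTPRC 16 to 52 and HBB 1 to 122. HBB was lower with the Viperin plasmid (log2 -4.46 ± 0.34 averaged over both insulin states, adjusted p = 6.5e-10), at means of 1.57 CPM in Control and 2.50 in Insulin against 0.0624 in Viperin and 0.122 in Viperin + Insulin. Control library 1 and Viperin library 3 stood apart by their share of multimapping reads, 13.9% and 12.1%, against 9.44% to 10.99% in the others, and by having the fewest assigned pairs. Counts of members in the effects averaged over groups are given with and without both. For Viperin against Control and for insulin within a plasmid, counts are given with single libraries left out only.

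Each synthetase first activates its amino acid with ATP and then transfers it to the matching tRNA, so that the ribosome reads codons correctly. Cytosolic and mitochondrial protein synthesis mostly use separate enzymes, both encoded in the nucleus, while GARS1 and KARS1 serve both compartments. Some cytosolic enzymes are held with the 3 scaffold proteins in the multi-synthetase complex. Several synthetase genes are known targets of ATF4, the transcription factor of the amino acid response, which insulin can also raise through mTORC1.

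The letters TGATGNAA form the core of the C/EBP-ATF response element that ATF4 binds, and they were searched on both strands in the RefSeq promoter windows of GRCh38.p14, each from 250 bases before to 50 after a gene's start. Windows were found for 33 of the 38 members, not for AARS2, LARS1, VARS1, VARS2 and YARS1. The letters were present for 7 of 16 cytosolic enzymes (43.8%), 1 of 14 mitochondrial enzymes (7.14%) and 0 of 3 scaffold proteins, and for 4.46% of 27305 genes with a window. All 8 matches are shown here because they set the compartments side by side; capitals mark the matched letters, which appear as their reverse complement where the match lies on the opposite strand.
MARS1 (chr12:57488053-57488082, + strand): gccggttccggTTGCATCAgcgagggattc
IARS1 (chr9:92293692-92293721, - strand): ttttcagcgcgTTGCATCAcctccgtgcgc
AARS1 (chr16:70289675-70289704, - strand): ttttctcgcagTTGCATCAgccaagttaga
CARS1 (chr11:3057407-3057436, - strand): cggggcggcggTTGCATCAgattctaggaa
TARS1 (chr5:33440956-33440985, + strand): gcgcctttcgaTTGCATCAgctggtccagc
NARS1 (chr18:57621804-57621833, - strand): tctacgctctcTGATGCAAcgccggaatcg
GARS1 (chr7:30594834-30594863, + strand): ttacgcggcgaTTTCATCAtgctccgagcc
YARS2 (chr12:32756076-32756105, - strand): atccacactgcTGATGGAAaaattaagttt

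In 6 of these stretches, those of MARS1, IARS1, AARS1, CARS1, TARS1 and NARS1, the same 8 letters were found on one strand or the other, and the stretch of YARS2 was the only one of a mitochondrial enzyme. Letters of the ETS family, CCGGAAGT, were in the windows of 5 of 16 cytosolic enzymes (31.2%) and 3 of 14 mitochondrial enzymes (21.4%), against 4.95% of all genes. The letters GCATGCGC, which lie within the site of NRF1, a regulator of nuclear genes for mitochondria, were found for MARS2 and YARS2, 14.3% of the 14 mitochondrial enzymes, for 0 of the 16 cytosolic enzymes, and for 3.68% of all genes. A match is a description of the letters and was not tested as a binding site.

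HARS1 and HARS2, the cytosolic and the mitochondrial histidine enzymes, lie head to head on chromosome 5, and 84 bases separate their RefSeq starts. That stretch, which both genes share, is printed from the + strand at chr5:140691371-140691454, with the ETS letters of either strand in capitals.
HARS1-HARS2: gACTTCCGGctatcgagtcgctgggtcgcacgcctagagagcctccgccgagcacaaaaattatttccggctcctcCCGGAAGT

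Per transcript length, in TPM (counts per length of the canonical transcript, scaled to a common sum), cytosolic enzymes were the more abundant class. Their median over the 12 libraries was 172 TPM (19 genes, 28.7 to 342), that of the mitochondrial enzymes 23.5 TPM (16 genes, 0 to 106) and that of the scaffold proteins 55.6 TPM (3 genes, 21.3 to 81.0). RARS1, the arginine enzyme, was highest at 342 ± 13.8 TPM (SD, n = 12 libraries of all groups), followed by TARS1, the threonine enzyme, at 300.2 ± 18.4 and GARS1, the glycine enzyme, at 266 ± 19.3. SARS1 (242 ± 12.2) and IARS1 (238 ± 14.6) did not differ beyond their spread, nor did KARS1 (195 ± 9.67) and AARS1 (192 ± 7.33). IARS2, the mitochondrial isoleucine enzyme, was the mitochondrial member with the highest level, 106 ± 6.80 TPM, above the cytosolic YARS1 (99.6 ± 9.87) by less than their spread.

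**Figure D1:**
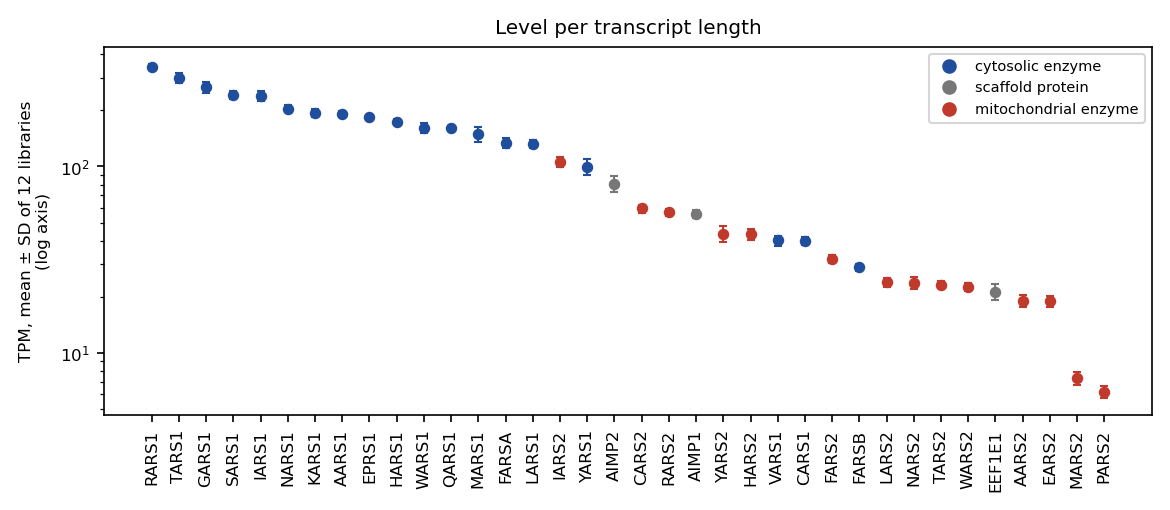
Level of the 36 counted members in TPM on a log axis, mean ± SD over 12 libraries, ordered from high to low and coloured by class. The first 15 genes are cytosolic enzymes, and MARS2 and PARS2, both mitochondrial, lie lowest at 7.29 and 6.17 TPM.

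At the low end were MARS2 (7.29 ± 0.565 TPM) and PARS2 (6.17 ± 0.477 TPM), the mitochondrial methionine and proline enzymes. PARS2 was at 6.69, 6.89 and 5.53 CPM in Control, 6.02, 5.89 and 5.61 in Insulin, 5.67, 5.75 and 6.48 in Viperin and 5.54, 5.49 and 5.71 in Viperin + Insulin, and all of these groups overlapped. SARS2 and VARS2, the mitochondrial serine and valine enzymes, had 0 counts in all 12 libraries, which allows up to 3 counts, or 0.0640 CPM in the deepest and 0.115 CPM in the shallowest library. In GENCODE 44, 48.2% of the exon bases of SARS2 and 63.0% of those of VARS2 are shared with another gene on the same strand, which also had 0 counts, and reads in shared bases are assigned to neither gene. The part of that overlap in the 0 counts was not tested. The order of levels depends on the length used: over the union of all exons, GARS1 ranked 16 in place of 3.

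For 11 amino acids the members hold a cytosolic and a mitochondrial enzyme under the same symbol but for its ending, 1 or 2, with both tested, and among these pairs the cytosolic transcript was the more abundant in TPM for 10. The ratio was 20.5 for methionine, 12.9 for threonine and 10.1 for alanine. For tyrosine it was 2.30 and for isoleucine 2.24. In the cysteine pair CARS1 was at 0.671 of the TPM of CARS2. For some pairs the direction depends on the length used. Over the union of all exons, IARS1 was at 77.7 TPM beside 148 for IARS2 and YARS1 at 40.6 beside 69.8 for YARS2. HARS1 was then at 38.7 beside 46.7 for HARS2, and CARS1 at 17.8 beside 17.1 for CARS2. In the remaining pairs the cytosolic transcript was the more abundant by either length. Phenylalanine, glutamate and proline are not among these pairs, because their cytosolic enzymes are named otherwise. For phenylalanine the subunits were at 134 TPM (FARSA) and 28.7 TPM (FARSB), beside 32.0 TPM for the mitochondrial FARS2. By this length FARSB was lower than FARS2, but over the union of all exons it was higher, at 46.9 TPM beside 18.1. EPRS1, which charges both glutamate and proline, was at 184 TPM, beside 18.9 TPM for EARS2 and 6.17 TPM for PARS2.

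Insulin raised many cytosolic enzymes by 5.30% to 18.5%, and a smaller number of mitochondrial ones. In the effect averaged over both plasmids, 18 of the 36 members tested were higher at an adjusted p under 0.05 (edgeR quasi-likelihood test, Benjamini-Hochberg over all 23041 genes), where 5.76% of all genes were higher. QARS1 was the only member lower, where 5.97% of all genes were, and 17 members did not pass. The median log2 fold change of the members was 0.09, that of all genes was -0.0015, with the middle of all genes (quartiles) from -0.14 to 0.11. Among the 9364 genes that averaged 10 CPM or more, 12.8% were higher and 11.7% lower. These are shares of each library's mRNA, so that fewer cells with a transcript and less of it per cell cannot be told apart.

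By compartment, 13 of 19 cytosolic enzymes were higher (5.76% of all genes) and 1 lower (5.97%). Of 14 mitochondrial enzymes, 4 were higher and 0 lower, and 1 of 3 scaffold proteins was higher. The median log2 fold changes were closer than these counts, 0.10 for cytosolic and 0.08 for mitochondrial enzymes, and 17 of 19 and 9 of 14 were above 0. The median standard error was 0.026 for the cytosolic and 0.038 for the mitochondrial enzymes, which had fewer counts.

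**Figure D2:**
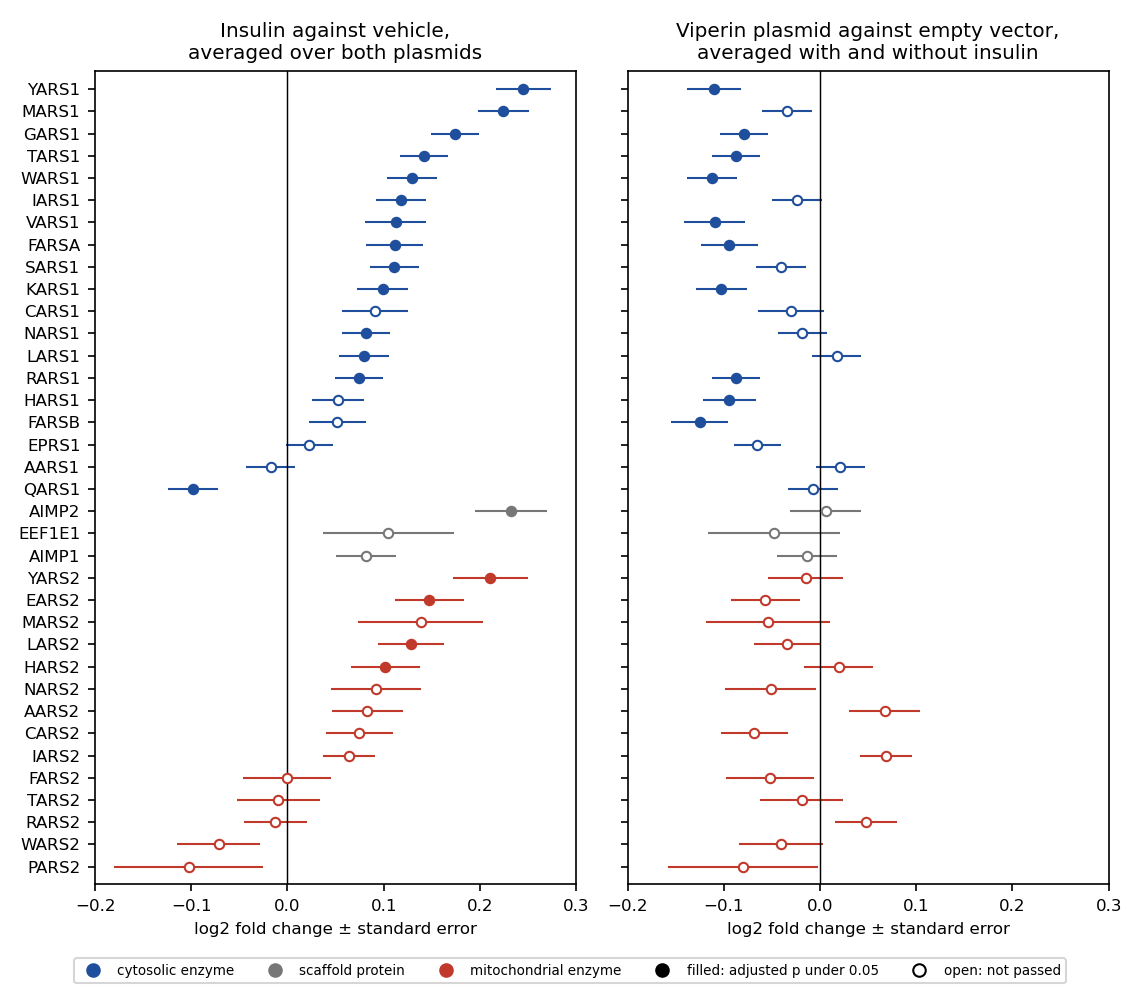
Log2 fold change ± standard error of the 36 members tested, for insulin against vehicle averaged over both plasmids (left) and for the Viperin plasmid against empty vector averaged over both insulin states (right); filled points have an adjusted p under 0.05. On the left 13 cytosolic enzymes, 4 mitochondrial enzymes and AIMP2 are filled above 0 and QARS1 below it, while on the right the 10 filled points are of the cytosolic class and below 0. That class includes GARS1 and KARS1, which serve both compartments.

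YARS1, the cytosolic tyrosine enzyme (chromosome 1, 32775237 to 32818031, minus strand, GRCh38), had the smallest p. It was at 91.8, 94.0 and 98.2 CPM in Control and at 112, 110.1 and 113 CPM in Insulin. With the Viperin plasmid it was at 90.2, 84.7 and 87.1 CPM with vehicle and at 104.1, 103.8 and 104.2 CPM with insulin. All 6 insulin libraries lay above all 6 vehicle libraries, by 18.5% on average (log2 0.25 ± 0.028 SE, adjusted p = 2.7e-10). MARS1, the cytosolic methionine enzyme (chromosome 12, 57475445 to 57517569, plus strand), was at 156, 161 and 160.2 CPM in Control and 183, 192 and 185 CPM in Insulin. It was at 159, 152 and 158 CPM in Viperin and 177, 179 and 188 CPM in Viperin + Insulin. The groups with and without insulin did not overlap, and the difference was 16.8% (log2 0.22 ± 0.026, adjusted p = 5.3e-10). The MARS1 stretch shown above carries the response element letters across the RefSeq start.

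GARS1, which charges glycine in both compartments, was at 250.5, 268 and 251 CPM in Control and 286, 288 and 287 CPM in Insulin. It was at 245, 237 and 240.0 CPM in Viperin and 275, 273 and 275 CPM in Viperin + Insulin, so each insulin library was above each vehicle library. The averaged difference was 12.8% (log2 0.17 ± 0.025, adjusted p = 2.1e-07). KARS1, the other enzyme used in both compartments, charges lysine and was at 159, 161 and 158 CPM in Control, 160.4, 176 and 168 CPM in Insulin, 149.6, 144 and 145 CPM in Viperin and 158, 158 and 161 CPM in Viperin + Insulin. With the empty vector its insulin and vehicle libraries overlapped, with the Viperin plasmid they did not, and the averaged difference was 7.10% (adjusted p = 0.0063).

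TARS1 rose by 10.3% (adjusted p = 1.4e-05), from 319, 322 and 328 CPM in Control to 353, 354 and 350.3 CPM in Insulin, and from 311, 299 and 291 CPM in Viperin to 343, 327 and 336 CPM in Viperin + Insulin. WARS1, the tryptophan enzyme, rose by 9.40% (adjusted p = 0.00019), from 167, 180.4 and 175 CPM in Control to 187, 189 and 189 CPM in Insulin. In Viperin it was at 162, 162 and 154 CPM and in Viperin + Insulin at 173, 180.4 and 176 CPM. For both enzymes the 3 insulin libraries lay above the 3 vehicle libraries within each plasmid.

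IARS1, the isoleucine enzyme of the multi-synthetase complex, rose by 8.52% (adjusted p = 0.00064). It was at 432, 438 and 387 CPM in Control and 454, 463 and 465 CPM in Insulin, then 427, 407 and 418 CPM in Viperin and 437, 449 and 455 CPM in Viperin + Insulin. Control library 3 was the lowest of the 12. SARS1, the serine enzyme, rose by 8.01% (adjusted p = 0.0012), from 179, 186 and 191 CPM in Control to 197, 198 and 198 CPM in Insulin. Its 3 Viperin libraries were all at 178 CPM, and Viperin + Insulin was at 197, 198 and 189.6 CPM. Within each plasmid the groups of IARS1 and of SARS1 did not overlap.

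QARS1, the glutamine enzyme of the complex, went the other way and is described here because it was the single member lower with insulin, a choice made after its values were seen. It was at 166, 163 and 170.4 CPM in Control and 151, 155 and 158 CPM in Insulin, and at 167, 164 and 163 CPM in Viperin and 154, 157 and 153 CPM in Viperin + Insulin. All 6 insulin libraries were below all 6 vehicle libraries, and the averaged log2 fold change was -0.10 ± 0.026 (adjusted p = 0.0055). EPRS1 and AARS1, abundant cytosolic enzymes for glutamate with proline and for alanine, had averaged log2 fold changes of 0.02 and -0.02 and did not pass.

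**Figure D3:**
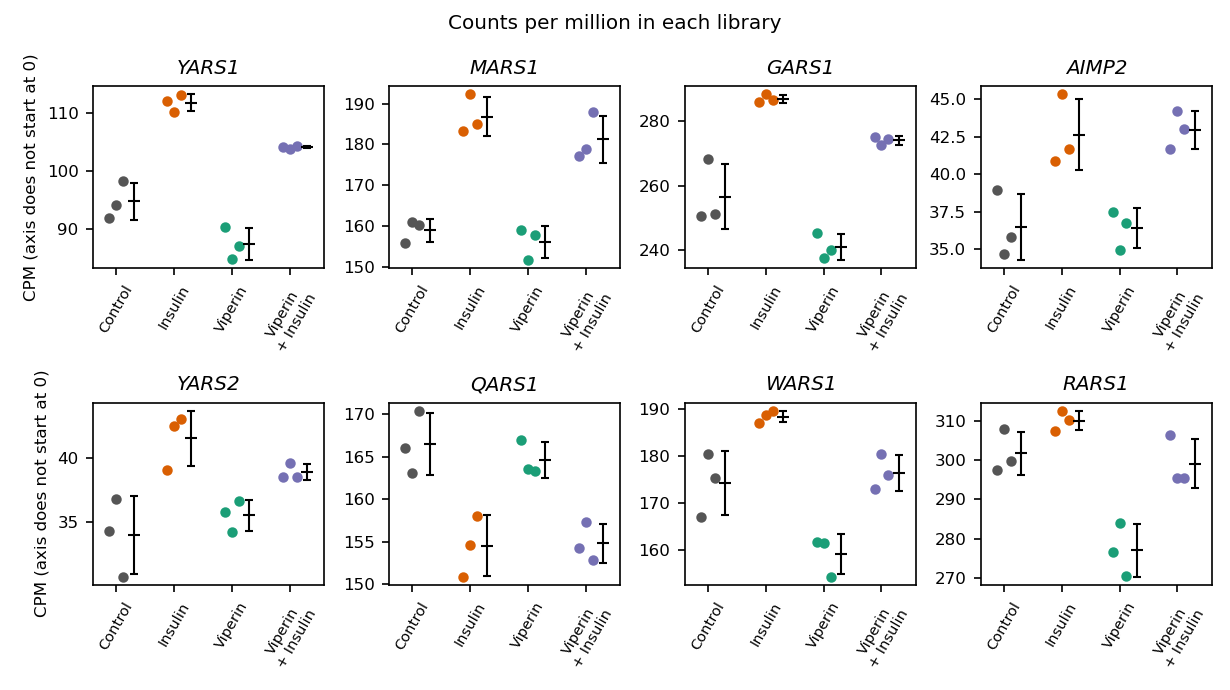
CPM of 8 members in each of the 12 libraries by group, with the mean ± SD of 3 libraries beside the points; the axes do not start at 0. In YARS1, MARS1, GARS1, AIMP2 and YARS2 all insulin libraries lie above all vehicle libraries, in QARS1 below, and in WARS1 and RARS1 the Viperin libraries lie below the Control libraries.

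Of the 7 enzymes of the multi-synthetase complex, 5 were higher with insulin (MARS1, IARS1, KARS1, LARS1 and RARS1), QARS1 was lower and EPRS1 did not pass. Of the 12 cytosolic enzymes outside it, 8 were higher and 4 did not pass, among them both HARS1 and FARSB. In the averaged insulin effect 5.76% of all genes were higher and 5.97% lower. AIMP2, a scaffold protein of the complex, was at 38.9, 34.7 and 35.8 CPM in Control and 40.9, 45.3 and 41.7 CPM in Insulin. With the Viperin plasmid it was at 37.5, 34.98 and 36.8 CPM, and with insulin at 41.7, 44.2 and 43.0 CPM. The insulin libraries were all above the vehicle libraries, by 17.5% (log2 0.23 ± 0.037, adjusted p = 2.5e-06). In GENCODE 44, 29.1% of the exon bases of AIMP2 lie opposite EIF2AK1, and the counts used here are those of the strand of AIMP2. AIMP1 (log2 0.08) and EEF1E1 (0.11), the other two scaffold proteins, did not pass.

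By structural class, which divides the enzymes by the fold of their active site, 10 of 18 class I enzymes were higher and 1 lower, and 7 of 15 class II enzymes were higher. With insulin 5.76% of all genes were higher and 5.97% lower. Among genes that averaged 10 CPM or more, 12.8% were higher and 11.7% lower. Of the 12 members commonly listed as ATF4 targets, 9 were higher and 0 lower, with a median log2 fold change of 0.11. Of the 7 cytosolic enzymes with the response element letters in a window, 5 were higher (median log2 fold change 0.12), and of the 9 with a window but without them, 5 were (median 0.07); AARS1 and CARS1 carry the letters and did not pass.

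Among the mitochondrial enzymes, YARS2, which charges tyrosine and carries the response element letters, rose by 15.7% (log2 0.21 ± 0.039, adjusted p = 3.8e-05). It was at 34.4, 36.8 and 30.8 CPM in Control and 39.1, 42.5 and 43.1 CPM in Insulin, and at 35.8, 34.2 and 36.6 CPM in Viperin and 38.5, 39.6 and 38.5 CPM in Viperin + Insulin, with no overlap between insulin and vehicle libraries. EARS2, the mitochondrial glutamate enzyme, rose by 10.8% (adjusted p = 0.0025), from 37.6, 39.1 and 41.1 CPM in Control to 41.0, 44.6 and 42.1 CPM in Insulin, and from 37.2, 36.0 and 37.8 CPM in Viperin to 43.0, 40.4 and 42.3 CPM in Viperin + Insulin. Its Control and Insulin libraries overlapped, and its Viperin and Viperin + Insulin libraries did not. LARS2 (9.29%, adjusted p = 0.0061) and HARS2 (7.31%, adjusted p = 0.048) were the other two that rose. The call of HARS2 was kept in 2 of 12 fits with a library left out and in 6 of 11 other settings, and it was lost with DESeq2 (adjusted p = 0.0741), limma-voom (0.0627), the replicate block, no robust option or the GC and length trend removed. With libraries left out its adjusted p reached 0.181 (without Insulin library 1).

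HARS2 and its head-to-head neighbour HARS1 can be set side by side. HARS2 was at 44.02, 41.8 and 39.4 CPM in Control, 47.3, 44.4 and 42.4 CPM in Insulin, 42.6, 41.7 and 42.3 CPM in Viperin and 44.5, 45.4 and 46.0 CPM in Viperin + Insulin. HARS1 was at 134, 139 and 149.6 CPM in Control, 139, 146 and 143 CPM in Insulin, 128, 129 and 129.5 CPM in Viperin and 138, 136 and 137 CPM in Viperin + Insulin. With insulin the averaged log2 fold change was 0.10 ± 0.036 for HARS2, whose call depended on the setting, and 0.05 ± 0.027 for HARS1 (adjusted p = 0.25). With the Viperin plasmid it was 0.02 ± 0.036 for HARS2 (adjusted p = 0.85) and -0.09 ± 0.027 for HARS1 (adjusted p = 0.018), and the difference between the neighbours was not tested.

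Over the 11 pairs matched by symbol, the cytosolic enzyme had the larger insulin fold change for 7 and the mitochondrial enzyme for 4, and the median of the cytosolic minus the mitochondrial log2 fold change was 0.03. The tryptophan pair differed most, with log2 fold changes of 0.13 for WARS1 and -0.07 for WARS2, followed by threonine with 0.14 for TARS1 and -0.01 for TARS2. The tyrosine pair rose together, by 0.25 and 0.21. Outside these pairs, the log2 fold changes for phenylalanine were 0.11 for FARSA and 0.05 for FARSB beside -6.3e-05 for FARS2, and that of EPRS1 was 0.02 beside 0.15 for EARS2 and -0.10 for PARS2. The log2 ratio of the cytosolic to the mitochondrial count was higher in all 3 insulin libraries than in all 3 vehicle libraries, within both plasmids, for arginine and tryptophan. For tryptophan it was 2.69 ± 0.110 in Control and 2.91 ± 0.106 in Insulin, and 2.64 ± 0.036 in Viperin and 2.82 ± 0.028 in Viperin + Insulin (SD, n = 3).

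**Figure D4:**
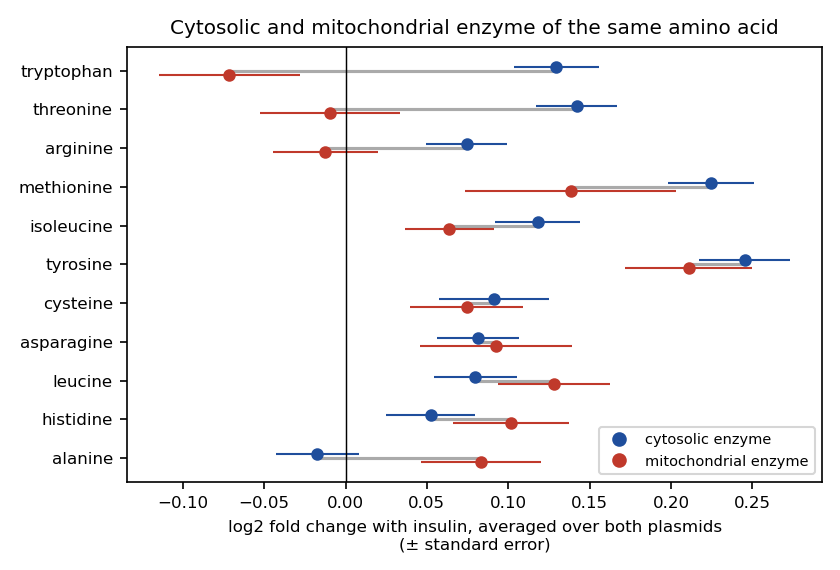
Insulin log2 fold change ± standard error, averaged over both plasmids, of the cytosolic and the mitochondrial enzyme for each of the 11 amino acids whose enzymes pair by symbol. The points of tyrosine lie together at 0.25 and 0.21 and those of tryptophan apart at 0.13 and -0.07.

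Averaged over the members of a class, the mean log2 CPM of the 19 cytosolic enzymes was 7.42 ± 0.018 in Control and 7.51 ± 0.014 in Insulin (SD, n = 3), and 7.35 ± 0.013 in Viperin and 7.45 ± 0.0058 in Viperin + Insulin. That of the 14 mitochondrial enzymes was 4.97 ± 0.045 and 5.02 ± 0.017, and 4.94 ± 0.025 and 5.01 ± 0.0058. In both classes the insulin libraries lay above the vehicle libraries of the same plasmid. The cytosolic minus the mitochondrial mean overlapped between Control (2.41 to 2.51) and Insulin (2.47 to 2.50), and did not overlap between Viperin (2.38 to 2.42) and Viperin + Insulin (2.44 to 2.45). Summed, the cytosolic enzymes took 3739 to 3824 CPM in Control and 3985 to 4045 CPM in Insulin. The share of counts from genes of the mitochondrial genome was also lower with insulin and with the Viperin plasmid. It was 5.59% to 6.64% in Control, 5.14% to 5.18% in Insulin, 4.81% to 5.34% in Viperin and 4.28% to 4.52% in Viperin + Insulin. Its part in these results was not tested. The summed level of 8 epithelial markers moved with insulin as well, without overlap within either plasmid, from 2576 to 2645 CPM in Control to 2673 to 2848 in Insulin and from 2440 to 2531 in Viperin to 2572 to 2683 in Viperin + Insulin. Most of that sum came from the keratins KRT8 (1173 to 1429 CPM), KRT18 (757 to 915) and KRT19 (430 to 508). EPCAM, CDH1, CLDN4 and MUC1 were each at or below 8.52 CPM. Of the 8 markers KRT8 was higher with insulin, MUC1 was lower and 6 did not pass, and the part of these markers in the result was not tested.

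**Figure D5:**
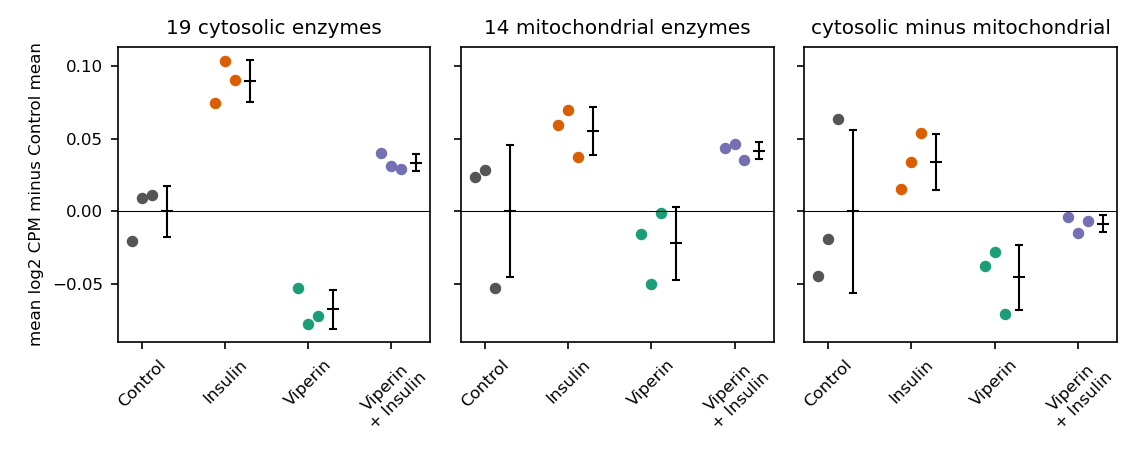
Mean log2 CPM of the cytosolic and the mitochondrial enzymes in each library and their difference, each minus its Control mean, with the mean ± SD of 3 libraries. Insulin libraries lie above vehicle libraries of the same plasmid in the first and second panel, and the cytosolic Viperin libraries lie below the Control libraries.

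Within the empty vector, 8 members were higher in Insulin than in Control (2.53% of all genes) and 0 lower (2.96% of all genes), namely MARS1, YARS1, YARS2, GARS1, AIMP2, IARS1, TARS1 and FARSA. Within the Viperin plasmid, 10 were higher with insulin (2.17% of all genes) and 0 lower (2.39%), namely YARS1, MARS1, GARS1, AIMP2, TARS1, WARS1, AARS2, SARS1, EARS2 and KARS1. Among genes that averaged 10 CPM or more, 5.71% were higher and 6.18% lower with the empty vector. With the Viperin plasmid 4.90% of those genes were higher and 5.18% lower. For 12 of 36 members all 3 insulin libraries were above all 3 vehicle libraries in both plasmids, as for 3.84% of all genes, and for QARS1 they were below in both, as for 3.69%. The difference of the insulin responses between plasmids was called for 0 members and for 0% of all genes in either direction by edgeR and also for 0 members by DESeq2 and limma-voom. At an unadjusted p under 0.05 it held 2 of 36 members and 1297 of all genes. AARS2, the mitochondrial alanine enzyme, had the smallest p, with a difference of 0.20 ± 0.074 on the log2 scale (adjusted p = 0.66).

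Of the 19 members called for insulin, 13 stayed past the threshold with each library left out in turn and under the 11 other settings tried at that threshold: YARS1, MARS1, GARS1, AIMP2, TARS1, YARS2, WARS1, IARS1, SARS1, EARS2, FARSA, QARS1 and LARS2. The calls of KARS1, VARS1, NARS1, LARS1, RARS1 and HARS2 were lost in at least 1 of these fits. Without Control library 1 and Viperin library 3, 19 members were called, not among them NARS1 and RARS1, and at an adjusted p under 0.001, 8 were.

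The list of amino acid response genes around ATF4 was followed beside the members. Of its 23 genes tested, 11 were higher with insulin (5.76% of all genes), 1 was lower (5.97%) and 11 did not pass. PSAT1, an enzyme of serine synthesis, was at 97.2 to 107 CPM in Control, 131 to 139 CPM in Insulin, 97.1 to 103 CPM in Viperin and 128 to 136 CPM in Viperin + Insulin, 32.5% higher with insulin (adjusted p = 1.4e-18). SLC7A5 and SLC3A2, the subunits of a transporter of large neutral amino acids, were 30.7% higher each (adjusted p = 1.6e-15 and 8.9e-15), and DDIT4, a stress-induced inhibitor of mTORC1, was 27.7% higher (adjusted p = 6.7e-12). ATF4 itself was at 135 to 142 CPM in Control, 149 to 154 in Insulin, 141 to 157 in Viperin and 161 to 171 in Viperin + Insulin, 11.8% higher with insulin (adjusted p = 8.6e-06). NUPR1 was lower (log2 -0.16, adjusted p = 0.014). ASNS, a widely used marker of this response, had only 6 to 21 counts per library and did not pass, and 49.3% of its exon bases are shared with another gene on its strand.

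Of 14 other genes of tRNA charging and delivery, 3 were higher with insulin (5.76% of all genes), 1 was lower (5.97%) and 10 did not pass. XPOT, which exports tRNA from the nucleus, was 13.7% higher (adjusted p = 4.1e-08), at 283 to 290 CPM in Control and 317 to 336 CPM in Insulin. It is also in the list of genes around ATF4 and so is counted in both lists. QRSL1, which helps form mitochondrial glutaminyl-tRNA, was 15.2% higher (adjusted p = 0.00011), and PTRH2, a peptidyl-tRNA hydrolase, was at 0.14 on the log2 scale (adjusted p = 0.015). EEF1A1, the factor that carries charged tRNA to the ribosome, fell by 12.5% (adjusted p = 1.3e-09), from 5725 to 5942 CPM in Control to 4967 to 5005 CPM in Insulin. Of 7 genes for kinases and partners that sense amino acids or stress, 0 were called by edgeR for insulin averaged over both plasmids. In that effect 2 had an unadjusted p under 0.05 (RPTOR, log2 0.08, and EIF2AK3, 0.07). Within the Viperin plasmid 1 was higher with insulin (2.17% of all genes), EIF2AK3 (log2 0.14). Its mean was 70.8 CPM in Viperin and 78.2 CPM in Viperin + Insulin.

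The Viperin plasmid went with lower cytosolic synthetases. In the effect averaged over both insulin states, 10 members were lower (3.49% of all genes) and 0 higher (4.47% of all genes), and all 10 were in the cytosolic class: WARS1, FARSB, YARS1, KARS1, TARS1, RARS1, VARS1, HARS1, FARSA and GARS1. GARS1 and KARS1 among them serve both compartments, so the calls were not confined to enzymes of the cytosol alone. The call of KARS1 was kept in 11 of 12 fits with a library left out. That of GARS1 was kept in only 3 of 12, with an adjusted p up to 0.166 by edgeR, and was lost with the replicate block. Among genes that averaged 10 CPM or more, 7.83% were lower and 9.38% higher. Of the 14 mitochondrial enzymes 0 were called, with 1 at an unadjusted p under 0.05. The median log2 fold change was -0.08 for the cytosolic and -0.04 for the mitochondrial enzymes, against 0.0019 for all genes, and 17 of 19 and 10 of 14 were below 0. The median standard error was 0.026 for the cytosolic and 0.038 for the mitochondrial enzymes. Fewer calls among the mitochondrial enzymes therefore do not by themselves set the compartments apart. In the plot of class means, the cytosolic Viperin libraries (7.34 to 7.36) lay below the Control libraries (7.40 to 7.43) and Viperin + Insulin (7.45 to 7.46) below Insulin (7.49 to 7.52), while the mitochondrial means overlapped between plasmids in both insulin states. The cytosolic minus the mitochondrial mean overlapped between Control (2.41 to 2.51) and Viperin (2.38 to 2.42). It did not overlap between Insulin (2.47 to 2.50) and Viperin + Insulin (2.44 to 2.45). The differences between plasmids were small, and 0 members passed an adjusted p of 0.001.

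WARS1 had the smallest p, with an averaged log2 fold change of -0.11 ± 0.026 (adjusted p = 0.0022), and its 3 Viperin libraries were below its 3 Control libraries. FARSB, the beta subunit of the phenylalanine enzyme, was at 75.5, 82.9 and 81.8 CPM in Control and 75.9, 76.4 and 75.1 CPM in Viperin, which overlapped, and at 83.7, 87.4 and 85.9 CPM in Insulin and 78.1, 74.5 and 75.8 CPM in Viperin + Insulin, which did not (log2 -0.12 ± 0.030 averaged, adjusted p = 0.0027). FARSA, the alpha subunit, was lower as well (log2 -0.09 ± 0.029, adjusted p = 0.03), as were YARS1 (log2 -0.11 ± 0.028, adjusted p = 0.0059) and KARS1 (log2 -0.10 ± 0.027, adjusted p = 0.0067). TARS1 had an averaged log2 fold change of -0.09 and was below the empty vector libraries in both insulin states.

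RARS1, the arginine enzyme of the complex, was at 297, 308 and 299.6 CPM in Control and 277, 284 and 271 CPM in Viperin, and at 307, 312 and 310.1 CPM in Insulin and 306, 296 and 295 CPM in Viperin + Insulin. Both pairs of groups were apart, and the averaged log2 fold change was -0.09 ± 0.025 (adjusted p = 0.015). VARS1, the valine enzyme, was at 68.5, 64.6 and 69.5 CPM in Control and 62.4, 58.3 and 64.8 CPM in Viperin, which overlapped narrowly, and at 72.8, 71.6 and 71.7 CPM in Insulin and 70.8, 68.2 and 64.1 CPM in Viperin + Insulin, which did not (log2 -0.11 ± 0.032, adjusted p = 0.018). For 6 of the 36 members, YARS1, GARS1, TARS1, WARS1, RARS1 and HARS1, the libraries with the Viperin plasmid were below those with the empty vector in both insulin states without overlap, as for 2.07% of all genes, and for 0 they were above in both, as for 3.06%.

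By group, 2 of the 7 enzymes of the complex (KARS1 and RARS1) and 8 of the 12 cytosolic enzymes outside it were lower, and 0 of the 3 scaffold proteins. In the averaged Viperin effect 3.49% of all genes were lower, and 7.83% of those that averaged 10 CPM or more. Of class I enzymes 4 of 18 and of class II enzymes 6 of 15 were lower. Of the members commonly listed as ATF4 targets 4 of 12 were lower, and of the cytosolic enzymes with a promoter window, 2 of the 7 with the response element letters and 6 of the 9 without.

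Without insulin, 2 members were lower in Viperin than in Control (1.04% of all genes), RARS1 (log2 -0.12, adjusted p = 0.042) and WARS1 (log2 -0.13, adjusted p = 0.043), and 0 were higher (1.25% of all genes). Among genes that averaged 10 CPM or more, 2.37% were lower and 2.84% higher. With the replicate block the count of members called was 0, and it ran from 0 to 5 with single libraries left out. With insulin, FARSB was lower (0.99% of all genes) in Viperin + Insulin than in Insulin (log2 -0.17 ± 0.042, adjusted p = 0.009). AARS2 was higher (log2 0.17 ± 0.051, adjusted p = 0.04995), where 2.09% of all genes were. Among genes that averaged 10 CPM or more, 2.15% were lower and 4.57% higher. Each of these calls is 1 of the 36 members tested, or 2.78%, near the shares among genes of that level. AARS2 was at 40.7, 41.6 and 39.3 CPM in Viperin + Insulin and 36.0, 37.8 and 34.3 CPM in Insulin, without overlap, and at 36.4, 36.0 and 37.0 CPM in Control and 35.2, 35.5 and 36.3 CPM in Viperin, which overlapped. In the Viperin effect averaged over both insulin states, AARS2 did not pass (log2 0.07, adjusted p = 0.32). The count of 2 fell to 1 with DESeq2, limma-voom, RLE size factors or the replicate block, and to 0 without Insulin library 2, Insulin library 3 or Viperin + Insulin library 2.

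Of the 10 members lower with the Viperin plasmid, 3 (WARS1, FARSB and YARS1) stayed past the threshold with each library left out and under the 11 other settings, and the direction stayed for all 10. Without Control library 1 and Viperin library 3 together, 10 were called, and without Insulin library 2, 6 were. The summed level of 8 mesenchymal or stromal markers was 6606 to 7510 CPM in Control and 7490 to 8028 in Viperin, which overlapped narrowly. It was 6873 to 6985 in Insulin and 7584 to 7957 in Viperin + Insulin, which did not. In the averaged Viperin effect 5 of the 8 were higher and VIM was lower. The epithelial sums given above were lower in Viperin than in Control without overlap, and those of Viperin + Insulin and Insulin overlapped. The share of counts from genes of the mitochondrial genome, given above, was lower with the Viperin plasmid in both insulin states without overlap. The part of the markers and of this share in the result was not tested.

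Of the genes around ATF4, 5 of 23 were higher with the Viperin plasmid (4.47% of all genes), 2 lower (3.49%) and 16 did not pass, with a median log2 fold change of -0.01. Among genes that averaged 10 CPM or more, 9.38% were higher and 7.83% lower. NUPR1, a stress-induced chromatin protein, was higher by 25.1% (adjusted p = 4.2e-07), VLDLR, a lipoprotein receptor, by 18.4% (adjusted p = 7.8e-05) and ATF4 by 9.09% (adjusted p = 0.001). The synthetases commonly listed as ATF4 targets were lower for 4 of 12 and higher for 0. These are transcript levels, and the part of ATF4 in the synthetase levels was not tested. ATF5 (log2 -0.17, adjusted p = 0.0047) and SLC3A2 (log2 -0.10, adjusted p = 0.021) were lower. Of the other charging genes, EEF1A1 was lower (log2 -0.10, adjusted p = 0.0021) and 13 did not pass. Of the sensing kinases and partners, EIF2AK3, a kinase of the unfolded protein response, was higher (log2 0.11, adjusted p = 0.015) and RPTOR, a subunit of mTORC1, was lower (log2 -0.09, adjusted p = 0.042).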

How the data were processed

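mRNA-seq was run on 12 libraries, 3 for each of 4 groups. From 50-base paired reads, trimmed by cutadapt and Trim Galore and mapped by STAR to hg38, the authors deposited unnormalized STAR counts of each gene, 1 file per library, with no version stated for these tools. Counts of the reverse strand were taken for each gene; they hold 94.1% to 94.3% of reads assigned on either strand, and lines for unassigned reads stayed out of the library sizes. Of 60617 IDs, 60357 were named from GENCODE 44 and 260 were not.

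The 23041 genes averaging 1 count or more over the libraries were scaled by TMM and fitted as 4 group means with edgeR 4.0.16 in R 4.3.3 (robust quasi-likelihood), with Benjamini-Hochberg adjustment over all genes and 7 comparisons. CPM values are TMM-scaled, class means use log2(CPM + 0.5), and TPM uses the length of the Ensembl canonical transcript. The members, lists and tests were chosen with earlier results of these data known. Values per library are given for the 10 members with the smallest p for insulin, up to 8 called between plasmids, the 3 highest and lowest by level, HARS1, HARS2, GARS1 and KARS1; of other lists, up to 4 genes by p for insulin and up to 3 for Viperin, and others were named after their values were seen. Libraries with the same number did not pair: of 18 correlations of their deviations from group means (-0.16 to 0.12), 1 was over 0.1, so no block was used. No library was a duplicate of another. P-values measure the spread between these cultures of a single line.

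Alternatives were RLE size factors, library sizes without RSAD2 and the genes of mitochondrial DNA, DESeq2 1.42.0, limma-voom (limma 3.58.1), other filters, unstranded counts, a replicate block, no robust option, removal of a GC and length trend, only the groups compared, an adjusted p under 0.001 and each library left out. Leaving out Control library 1 with Viperin library 3 was added after the data were seen. The fit was tested on simulated data.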

Additional observations from a re-analysis of the deposited data

How the results depend on the processing

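Under the alternatives the count of members called for insulin averaged over both plasmids ran from 18 to 22, except that it was 8 at an adjusted p under 0.001, and from 14 to 19 with single libraries left out. For Insulin against Control it was 8, and 3 at 0.001, with 4 to 10 without single libraries (4 without Insulin library 2, 5 without Insulin library 3). For Viperin + Insulin against Viperin it was 10, and 3 at 0.001, with 5 to 14 (6 without Viperin library 1 or 2 or Viperin + Insulin library 2, 5 without Viperin + Insulin library 1). For Viperin averaged it was 10, and 0 at 0.001, with 6 to 11 (6 without Insulin library 2). For Viperin against Control it was 2, and 4 with filterByExpr, 7 with the GC and length trend removed and 0 without the robust option, with only the groups compared or at 0.001, with 0 to 5 without single libraries: 5 without Control library 1, 1 without Control library 3, 2 without Insulin library 1 and 0 without any other. For Viperin + Insulin against Insulin it was 2, and 1 with RLE size factors, with library sizes without RSAD2 and the genes of mitochondrial DNA, with DESeq2, with limma-voom, without a filter or without the robust option, 6 with the GC and length trend removed, 8 with only the groups compared, 4 without Control library 1 and Viperin library 3, and 0 at 0.001, with 0 to 2 without single libraries (0 without Insulin library 2 or 3 or Viperin + Insulin library 2, and 1 without Insulin library 1, Viperin library 1 or 2, or Viperin + Insulin library 1 or 3). With the replicate block the counts were 18 for insulin averaged, 7 for Insulin against Control, 9 for Viperin + Insulin against Viperin, 9 for Viperin averaged, 0 for Viperin against Control and 1 for Viperin + Insulin against Insulin. The difference of the insulin responses stayed at 0 under all. The cytosolic median log2 fold change was 0.10 for insulin (0.0835 to 0.109 without single libraries, lowest without Insulin library 2) and -0.08 for Viperin (-0.0871 to -0.0621, nearest 0 without Control library 2), the mitochondrial ones 0.08 (0.06 to 0.09) and -0.04 (-0.04 to -0.02), and no median changed sign. The cause of these shifts was not tested, and a stricter threshold makes fewer calls by construction. Precision was lowest for members with few counts: PARS2 had 173 to 269 counts per library and a standard error of 0.077 for its averaged insulin log2 fold change, against a median of 0.026 for the cytosolic enzymes.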
